A study of Caenorhabditis elegans with 2 samples.

Results

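Membrane trafficking genes of Caenorhabditis elegans were examined for binding of SWSN-7, which carries an ARID domain and belongs to PBAF, a nucleosome-remodelling complex of the SWI/SNF family. The genes were all protein-coding genes of assembly WBcel235 (ce11) whose symbol starts with rab-, arl-, arf-, vps- or snx-, other than rab-3, which gave 66 of 19973 protein-coding genes. They fell into 28 GTPase genes (19 rab, 6 arl and 3 arf genes) and 38 sorting genes (31 vps and 7 snx genes). The rule itself uses gene symbols alone, but it was proposed with earlier results of these data known. Chromatin immunoprecipitation and sequencing (ChIP-seq) with an antibody against GFP had been done on whole hermaphrodite L1 larvae of strain OP512, genotype unc-119(tm4063) III; wgIs512, in which SWSN-7 carries a C-terminal GFP-FLAG tag. All animals carried both the unc-119 mutation and the transgene and had been synchronized by starving L1 larvae after bleaching and were collected 6 hours later. There was 1 group of 2 biological replicates, so no conditions were compared. Data of a control experiment were not used here, and a tagged transgene reports on the tagged protein only.

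Rab, Arf and Arl proteins are small GTPases that switch between a GTP-bound state on membranes and a GDP-bound state, and each marks particular compartments such as the Golgi, early endosomes or lysosomes. The vps genes are named after yeast vacuolar protein sorting genes. Many encode subunits of multiprotein machines: the ESCRT complexes bud vesicles into endosomes and cut membrane necks, retromer returns cargo from endosomes, and the HOPS, CORVET, GARP and EARP complexes tether vesicles before fusion. Sorting nexins (snx) bind phosphoinositides on endosomes. These machines work in essentially every cell type of the animal.

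Regions that met the authors' threshold on the irreproducible discovery rate (IDR) numbered 4087, and each came with a signal value, the unitless enrichment score of their peak caller. A gene is called bound here when the summit of an IDR entry lay in its promoter window, which reaches 1000 bp upstream and 500 bp downstream from the 5′ end of any of its protein-coding transcripts. The pooled list held 30000 candidate entries, peaks and background together, and each replicate had a list of the same length. Every pooled entry at or above 88.4, the lowest IDR signal value, was in the IDR list, so bound genes are those whose pooled signal value reached that level. Signal values are compared within a list only, and ranks (1 is strongest) are given between lists of equal length. The files gave no read counts, so the sequencing depth is unknown.

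The sequences at the summits of 6 bound members are shown because they span the range of base composition among them, from the AT-rich window at vps-2 to the GC-rich window at rab-14. Among members on chromosomes II to X, the first 4 have the highest values with a window free of annotated exons, and snx-13, which comes next with 351.7, is not shown. The windows at vps-2 and arf-6, next in value after snx-13, complete the set, vps-2 having the lowest GC content. Each is the 200 bp window from 100 bp before the summit, read 5′ to 3′ on the strand of the gene, from the RefSeq genome of WBcel235. Capitals mark matches on either strand to the E-box CACGTG, the GATA-type site TGATAA, the repeat GAGAGA, the pattern TTTNNCGC or the TATA box TATAAA, and matches may overlap. The windows were, in order, chrV:8606402-8606601 on the minus strand, chrII:11967622-11967821 on the minus strand, chrV:5592431-5592630 on the plus strand, chrX:15606955-15607154 on the minus strand, chrII:12768414-12768613 on the minus strand and chrIV:16946852-16947051 on the plus strand. None overlapped an annotated exon.
vps-60: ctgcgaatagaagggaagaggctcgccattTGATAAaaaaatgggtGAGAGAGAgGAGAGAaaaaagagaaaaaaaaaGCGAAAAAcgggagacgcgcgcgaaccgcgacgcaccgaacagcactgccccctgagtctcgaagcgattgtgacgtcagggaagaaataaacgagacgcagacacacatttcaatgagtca
rab-7: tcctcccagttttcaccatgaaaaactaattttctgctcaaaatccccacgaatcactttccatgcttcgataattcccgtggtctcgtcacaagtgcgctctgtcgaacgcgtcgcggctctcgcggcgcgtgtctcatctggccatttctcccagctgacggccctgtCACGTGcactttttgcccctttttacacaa
vps-37: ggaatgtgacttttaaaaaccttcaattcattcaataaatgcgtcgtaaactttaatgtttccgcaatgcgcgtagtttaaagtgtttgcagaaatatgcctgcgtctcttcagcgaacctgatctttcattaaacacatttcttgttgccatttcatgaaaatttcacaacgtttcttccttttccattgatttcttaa
rab-14: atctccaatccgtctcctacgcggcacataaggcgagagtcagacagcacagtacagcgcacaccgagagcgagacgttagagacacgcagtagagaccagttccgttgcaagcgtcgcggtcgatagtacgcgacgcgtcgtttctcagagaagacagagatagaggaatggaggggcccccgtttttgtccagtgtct
vps-2: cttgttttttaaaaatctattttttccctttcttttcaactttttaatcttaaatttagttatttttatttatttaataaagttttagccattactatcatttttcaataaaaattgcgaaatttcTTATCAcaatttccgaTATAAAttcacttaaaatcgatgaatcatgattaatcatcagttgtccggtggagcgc
arf-6: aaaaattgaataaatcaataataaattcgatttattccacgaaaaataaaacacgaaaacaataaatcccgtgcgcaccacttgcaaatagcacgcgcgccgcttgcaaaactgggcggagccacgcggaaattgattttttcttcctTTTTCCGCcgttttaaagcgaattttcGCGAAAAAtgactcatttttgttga

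Of the 66 trafficking genes, 25 were bound (37.9%, exact 95% interval 26.2 to 50.7), against 15.9% of all protein-coding genes. Sorting genes were bound in 16 of 38 cases (42.1%, interval 26.3 to 59.2) and GTPase genes in 9 of 28 (32.14%, interval 15.9 to 52.4). Both shares lay above the genome-wide one, and their intervals overlapped each other over most of their length. With replicate 1's strongest 4087 entries alone, 24 members were called, 8 GTPase and 16 sorting genes, against 15.6% of all genes. With replicate 2's strongest 4087 entries alone, 26 were called, 9 GTPase and 17 sorting genes, against 15.8% of all genes. The spread between the libraries was thus 1 gene in each class. The difference between GTPase and sorting genes was not tested, since genes are not replicates of a condition and the series holds no second group. Intervals cover counting error over genes only.

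**Figure D1:**
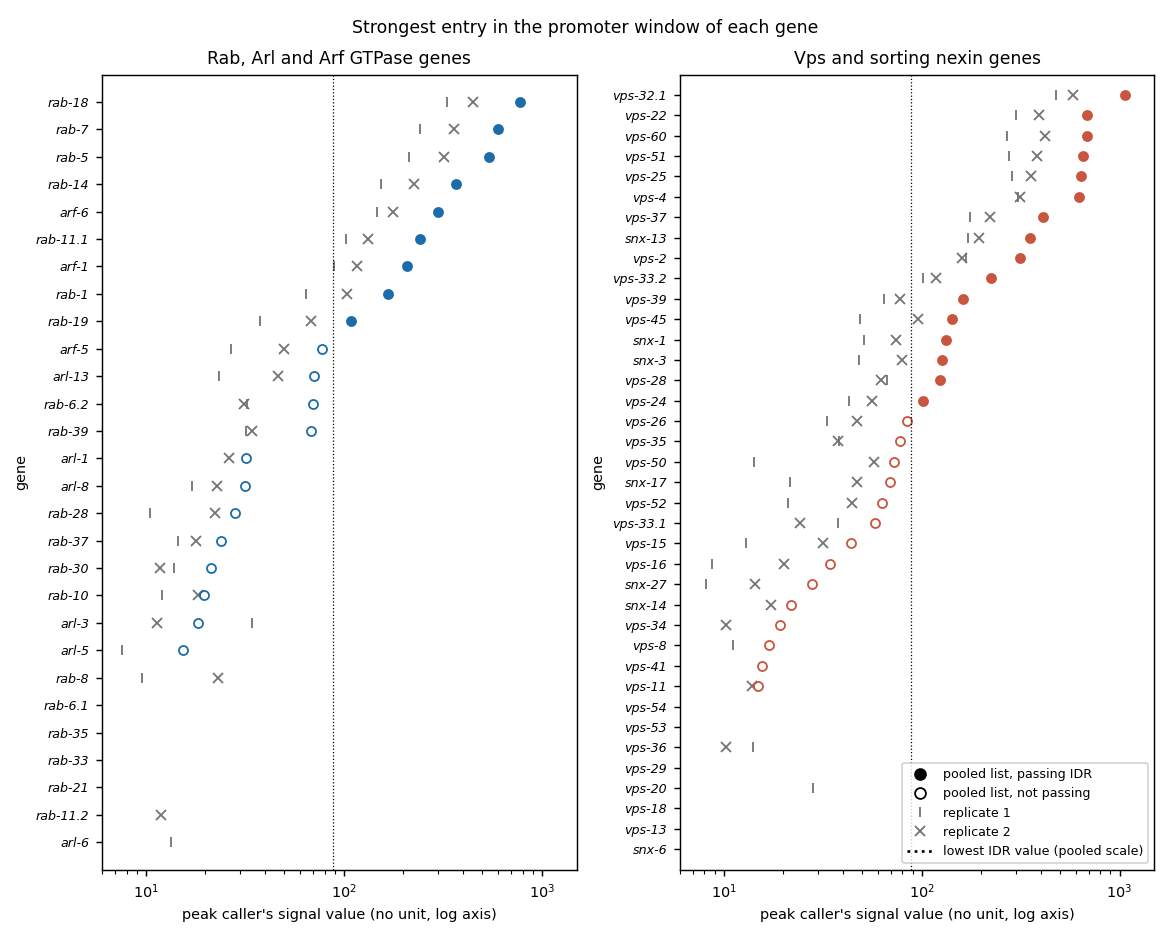
Signal value of the strongest entry in the promoter window of each of the 66 genes, on a log axis, with GTPase genes on the left and sorting genes on the right. Circles are pooled values, filled where the entry passed IDR, and bars and crosses are replicates 1 and 2, whose values have scales of their own. The dotted line is the lowest pooled value in the IDR list (88.4), and genes with no mark had no entry in any list.

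ESCRT genes made up more than any other functional group of the bound sorting genes. Of 11 ESCRT genes with vps names, 9 were bound (81.8%, interval 48.2 to 97.7), against 15.9% of all protein-coding genes. The same number was called from either replicate alone. ESCRT genes with other names are not members, and 3 of 9 were bound (33.3%, interval 7.5 to 70.1, which includes 15.9%). Of the 27 sorting genes outside ESCRT, 7 were bound (25.9%, interval 11.11 to 46.3), and this interval includes the 15.9% of all genes. The ESCRT count was 6 of 11 within 300 bp of the 5′ end, against 10.1% of all genes, and 6 of 11 where only the gene with the nearest 5′ end counted, against 11.9%. Among the strongest 2043 IDR entries it was 7 of 11, against 9.56%. Under the main rule, sorting genes outside ESCRT had a lower share than GTPase genes (25.9% against 32.14%). Within 300 bp of the 5′ end (18.5% against 10.7%) and with the nearest 5′ end (18.5% against 17.9%) they had a higher one. This split was not planned, and no group was taken out of the GTPase class. The part of the ESCRT genes in the class difference was therefore not tested. The genes were grouped into complexes by their known subunits.

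Within ESCRT, the membrane-remodelling subunits of ESCRT-III and the enzyme that recycles them gave some of the highest values. The strongest entry of any member lay at vps-32.1, which encodes the main filament-forming ESCRT-III subunit. The entry had 1061.5 in the pooled list, 475.2 in replicate 1 and 585.0 in replicate 2. It ranked 90 in the pooled list, 90 in replicate 1 and 93 in replicate 2. The IDR region ran from 6588890 to 6589274 on chromosome II, within which lies the noncoding gene C56C10.15. Its summit lay at -641 bp from vps-32.1 but nearer to icd-1, at -412 bp. At vps-60, which encodes an ESCRT-III-like protein, the pooled value was 684.4, with 268.7 in replicate 1 and 421.9 in replicate 2 (chromosome V, 8606339 to 8606666). At vps-4, the AAA ATPase that takes ESCRT-III filaments apart, the values were 623.0 pooled, 308.0 in replicate 1 and 313.6 in replicate 2 (chromosome I, 1067026 to 1067320). Among the values of all 3179 bound genes, vps-32.1 stood at percentile 97.3, vps-60 at percentile 91.5 and vps-4 at percentile 89.2, so all 3 were near the top. The ESCRT-III subunit gene vps-2 had 315.9 pooled, 168.5 in replicate 1 and 159.4 in replicate 2, at a summit nearer to the 5′ end of tiar-2. A further ESCRT-III subunit gene, vps-24, had the lowest value of any bound member, with 101.6 pooled, 43.2 in replicate 1 and 56.1 in replicate 2. The remaining ESCRT-III subunit gene among the members, vps-20, had no pooled entry and was listed in replicate 1 alone, at 28.4.

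ESCRT-II and ESCRT-I act before ESCRT-III on the endosome. Among ESCRT-II genes, vps-22 had 686.5 pooled, 299.4 in replicate 1 and 393.6 in replicate 2 (chromosome III, 4962984 to 4963241). That summit lay nearer to the 5′ end of C27F2.9. For vps-25 the values were 640.6 pooled, 286.6 in replicate 1 and 358.2 in replicate 2, at a summit inside the gene, -10 bp from an internal transcript start (chromosome I, 12736576 to 12737001). The third ESCRT-II gene, vps-36, had no pooled entry, and its entries of 14.05 in replicate 1 and 10.3 in replicate 2 ranked 13254 and 28980. Among ESCRT-I genes with vps names, vps-37 had 408.4 pooled, 175.9 in replicate 1 and 220.5 in replicate 2. The other, vps-28, had 124.0 pooled, 67.2 in replicate 1 and 62.5 in replicate 2. The 9 bound ESCRT genes with vps names had a median pooled value of 623.0, against 223.1 over all bound genes, and 7 of the 9 lay above the latter.

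The other sorting machines gave fewer bound genes, in small groups whose shares cannot be told from the 15.9% of all protein-coding genes. The exact intervals were 3.2 to 65.1% for HOPS and CORVET and 0.5 to 71.6% for GARP and EARP. They reached from 0 to 70.8% for retromer and from 0 to 84.2% for the phosphatidylinositol 3-kinase complex. None of the 3 retromer core genes was bound, but 2 of them were the first members below the IDR limit: vps-26 had 84.6 pooled, 33.4 in replicate 1 and 47.3 in replicate 2, and vps-35 had 77.7 pooled, 38.3 in replicate 1 and 37.6 in replicate 2. The third, vps-29, had no entry in any list. Of the 8 genes of the HOPS and CORVET tethers, 2 were bound. They were vps-33.2, whose protein regulates SNARE-driven fusion (224.7 pooled, 101.6 in replicate 1, 118.1 in replicate 2), and vps-39, which encodes a HOPS subunit (162.0 pooled, 64.8 in replicate 1, 77.8 in replicate 2). The paralogue of the former, vps-33.1, had 58.3 pooled and was not bound. The summit at vps-33.2 lay at its 5′ end, which is within the autophagy gene epg-5 on the opposite strand. Of the 5 genes of the GARP and EARP tethers, vps-51 alone was bound, with 653.7 pooled, 276.1 in replicate 1 and 382.1 in replicate 2. Neither gene of the phosphatidylinositol 3-kinase complex was bound, with 43.9 pooled at vps-15 and 19.3 at vps-34. The gene for the SNARE regulator VPS-45 was bound, with 142.6 pooled, 49.0 in replicate 1 and 95.9 in replicate 2. The gene for the lipid transfer protein VPS-13 had no entry in any list.

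Of the 7 sorting nexin genes, 3 were bound (interval 9.9 to 81.6%), against 15.9% of all protein-coding genes. The highest was snx-13 (351.7 pooled, 172.4 in replicate 1, 196.1 in replicate 2), and it and vps-25 were the only bound members with 2 IDR entries in the window. At snx-1, which encodes a partner of retromer, the values were 133.1 pooled, 51.3 in replicate 1 and 74.6 in replicate 2. At snx-3, which acts with retromer in recycling the Wnt carrier MIG-14, they were 126.9 pooled, 48.4 in replicate 1 and 79.3 in replicate 2. The nexin genes snx-17, snx-27 and snx-14 had 69.4, 27.8 and 21.9 in the pooled list, and snx-6 had no entry in any list.

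Among the GTPases, the endosomal Rab genes were bound in 3 of 4 cases, against 15.9% of all genes, but in 0 of 4 within 300 bp of the 5′ end and in 2 of 4 where only the nearest 5′ end counted. They were rab-7 of late endosomes (599.6 pooled, 242.1 in replicate 1, 361.9 in replicate 2), rab-5 of early endosomes (543.2 pooled, 212.9 in replicate 1, 320.2 in replicate 2) and rab-14 (368.2 pooled, 154.3 in replicate 1, 225.1 in replicate 2). The fourth, rab-21, had no entry in any list. Of the 8 Rab genes of the endoplasmic reticulum and Golgi, 3 were bound. The highest GTPase gene of all was rab-18, whose product acts at the endoplasmic reticulum and lipid droplets, with 774.3 pooled, 333.4 in replicate 1 and 447.9 in replicate 2 (chromosome III, 1080612 to 1080883). Lower values were found at rab-1, the Rab of transport from the endoplasmic reticulum to the Golgi (166.6 pooled, 64.6 in replicate 1, 103.8 in replicate 2), and at rab-19 (108.8 pooled, 37.7 in replicate 1, 68.1 in replicate 2). Of the 6 Rab genes of recycling and secretion, rab-11.1 of recycling endosomes was bound, with 243.4 pooled, 102.8 in replicate 1 and 132.2 in replicate 2. Its paralogue rab-11.2 had no pooled entry, and neither had rab-8 and rab-35, while rab-37 had 24.0 and rab-10 had 19.6. The gene for the ciliary Rab RAB-28 had 28.3 in the pooled list and was not bound.

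Arf and Arl genes were small groups whose exact intervals overlapped, so no difference in their shares can be told. Of the 3 arf genes 2 were bound (interval 9.4 to 99.2%, which includes the 15.9% of all protein-coding genes). They were arf-6, whose product acts at the plasma membrane and endosomes (298.8 pooled, 146.3 in replicate 1, 176.9 in replicate 2), and arf-1, whose product recruits coats at the Golgi (207.4 pooled, 89.0 in replicate 1, 116.0 in replicate 2). The summit at arf-1 lay inside the gene, at -410 bp from its second transcript start. The third, arf-5, had 77.4 pooled, 26.8 in replicate 1 and 49.8 in replicate 2, and was the GTPase gene nearest below the IDR limit. None of the 6 arl genes was bound, a count that allows a share of up to 45.9% by the exact interval. The highest of them was arl-13, a gene of cilia, with 71.1 pooled, and arl-1, arl-8, arl-3 and arl-5 had 31.9, 31.7, 18.4 and 15.3. The gene for the BBSome partner ARL-6 had an entry in replicate 1 alone, at 13.4.

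The 41 members that were not bound covered a wide range. In the pooled list 26 of them had an entry in the promoter window, so 51 of the 66 members had a candidate of any strength, against 45.9% of all protein-coding genes. Among these 26, 10 had the highest −log10 q-value the authors' list gives, which all IDR entries share. Beside those named above, these were rab-6.2 (69.6) and rab-39 (68.4) among the GTPases, and vps-50 (72.3) and vps-52 (63.1) among the tethers. Without allowance for the scales of the lists, vps-50 had the largest ratio between the libraries, with 14.2 in replicate 1 and 57.3 in replicate 2. These entries ranked 13001 and 3735. It was the only member that replicate 2's strongest entries added to the bound set. Of the other members, 5 had an entry in a replicate but not in the pooled list, and 10 had none in any list. Beside those named above, the latter were rab-33, rab-35, rab-6.1, vps-18, vps-53 and vps-54.

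At the bound members the replicates differed mainly by an offset. These members were called by their pooled signal value, to which both replicates contribute, so the call and the replicate values were not independent. Replicate 2's value was the higher one at 23 of 25, vps-2 and vps-28 being the exceptions, with a median log2 ratio of 0.38 (SD 0.26 over genes). Over all bound genes with both values the median was 0.41 (SD 0.43), so the members followed the offset between the lists. Among members that were not bound the replicates could point to different places: at arl-3 the strongest entry was 34.6 at 474 bp in replicate 1 and 11.4 at -419 bp in replicate 2.

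**Figure D2:**
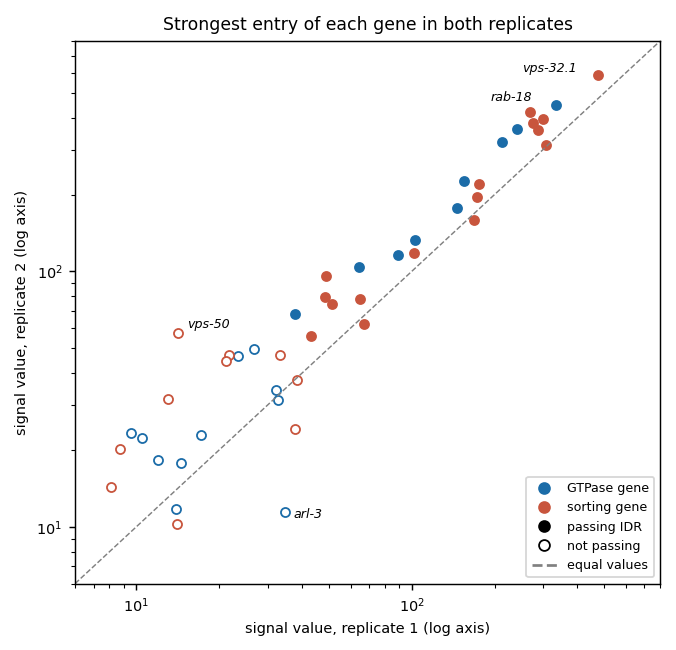
Signal value of the strongest entry in the promoter window in replicate 1 (x) and replicate 2 (y), both on log axes, for each gene with an entry in both lists. Filled circles passed IDR in the pooled list, and the dashed line marks equal values; 23 of the 25 bound genes lie above the line, vps-2 and vps-28 lie just below it, and vps-50 and arl-3, both not bound, are farthest from it.

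Summits lay farther from the 5′ end at bound GTPase genes than at bound sorting genes. The median position was -420 bp for the 9 GTPase genes and -234.5 bp for the 16 sorting genes, against -226 bp over all bound genes. Within the 300 bp upstream of the 5′ end lay the summits of 2 of 9 GTPase genes, arf-6 at -168 bp and rab-19 at -113 bp, and of 11 of 16 sorting genes, against 57.0% of all bound genes. The summit of rab-18 lay at 24 bp, inside the gene, and that of rab-19 was also inside its gene, upstream of an internal transcript start. More than 500 bp upstream lay those of rab-7 (-791 bp), rab-5 (-710 bp), rab-11.1 (-671 bp) and rab-1 (-541 bp), and of vps-32.1 (-641 bp), vps-22 (-619 bp) and vps-39 (-513 bp) among sorting genes. These made up 4 of 9 and 3 of 16, against 19.97% of all bound genes. The summits of rab-7, rab-11.1, rab-1, vps-32.1 and vps-22 lay nearer to another gene's 5′ end, while those of rab-5 and vps-39 did not. The part of such neighbours in the distances was not tested. Annotated 5′ ends of trans-spliced transcripts can lie downstream of the true start, which can move a position upstream.

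**Figure D3:**
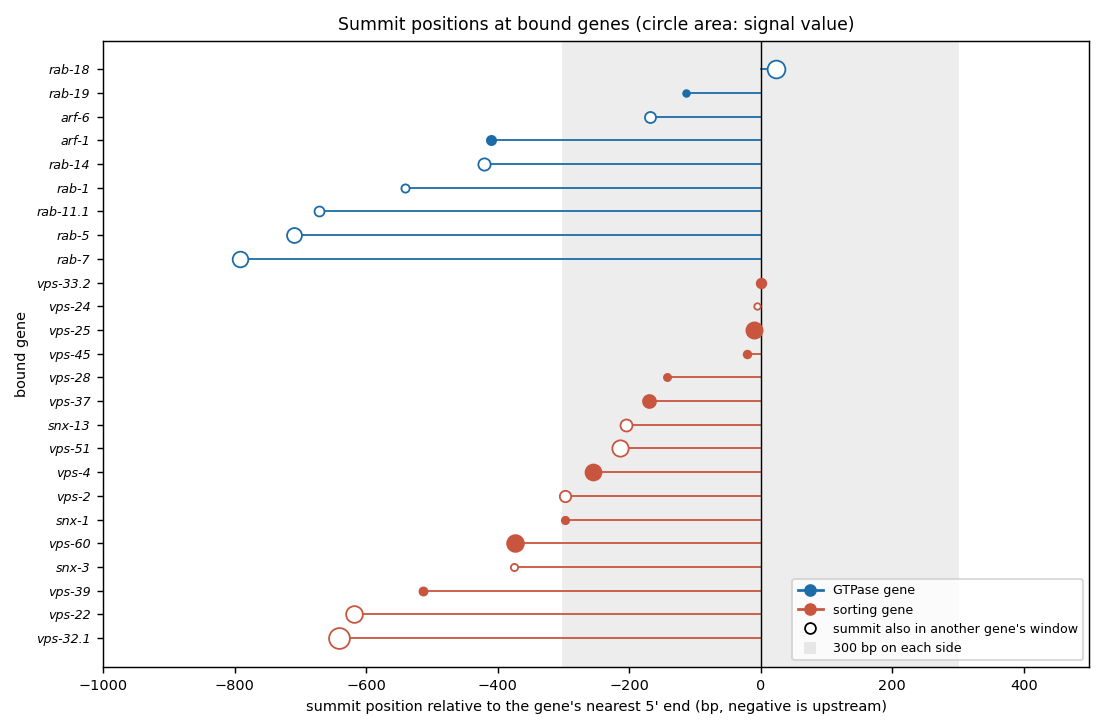
Position of the strongest IDR summit relative to the nearest 5′ end of each of the 25 bound genes, in bp, with upstream negative. Circle area follows the signal value, open circles mark summits that also lie in another gene's promoter window, and grey shading covers 300 bp on each side; 6 of the 9 GTPase summits lie outside the shading, against 5 of the 16 sorting summits.

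The counts moved with the window. With summits counted only within 300 bp of the 5′ end, 3 of 28 GTPase genes were bound (10.7%), close to the 10.1% of all genes, while 11 of 38 sorting genes were bound (28.9%). With the window reaching 2000 bp upstream the counts were 13 of 28 and 19 of 38, against 20% of all genes. The strongest 2043 IDR entries gave 7 of 28 (25%) and 10 of 38 (26.3%), against 9.56% of all genes. Any overlap of an entry with the window gave 9 of 28 and 18 of 38, against 16.7% of all genes. Bound under all 7 alternatives and the main rule were rab-18, snx-13, vps-25, vps-33.2, vps-37 and vps-4.

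**Figure D4:**
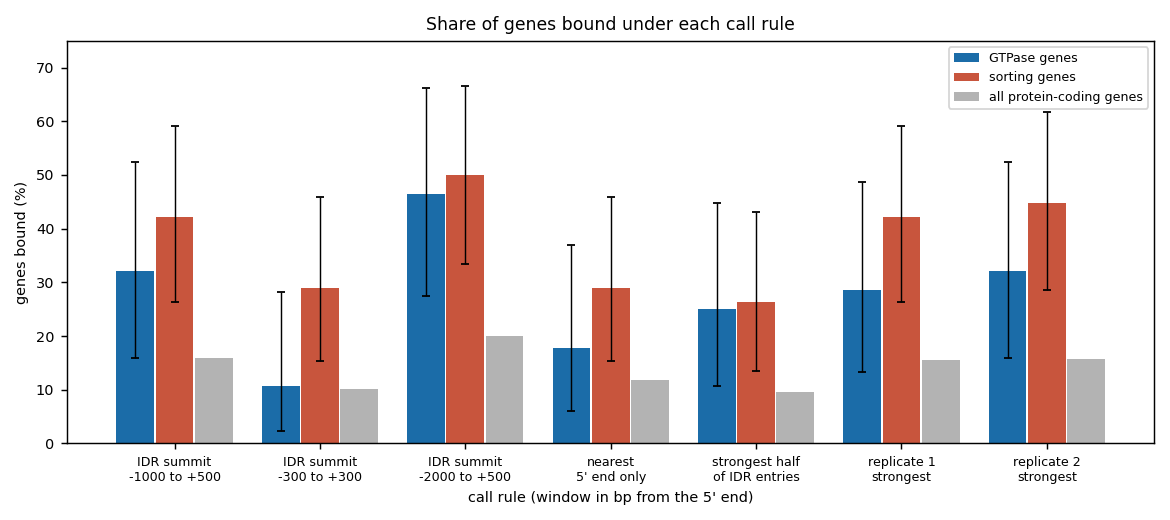
Percent of GTPase genes, sorting genes and all protein-coding genes bound under 7 call rules. Error bars are exact 95% intervals over genes, and the windows are in bp from the 5′ end. The sorting genes lie above all genes under each rule drawn, while the GTPase genes lie at 10.7% against 10.1% within 300 bp of the 5′ end.

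Many of the summits served the promoter windows of several genes. At 14 of the 25 bound members the summit also lay in the window of another protein-coding gene (56%), against 49.95% of all bound genes. This held for 7 of 9 GTPase genes and 7 of 16 sorting genes. At 9 members another gene's 5′ end was nearer. The region at vps-32.1 lay at -412 bp from icd-1, which encodes a subunit of the nascent polypeptide-associated complex. That at rab-11.1 lay at -310 bp from rpl-7, a ribosomal protein gene, and that at vps-51 lay almost midway to lin-35, the Rb homologue, at -214 bp from vps-51 and -204 bp from lin-35. Others lay nearer to C27F2.9 (-68 bp, with vps-22), W03C9.5 (-178 bp, with rab-7), tiar-2 (-172 bp, with vps-2), rad-54.L (-301 bp, with snx-3), C39F7.5 (-243 bp, with rab-1) and Y116A8C.9 (-152 bp, with arf-6). Counting only the gene with the nearest 5′ end, 5 of 28 GTPase genes (17.9%) and 11 of 38 sorting genes (28.9%) were bound, against 11.9% of all genes. The regions of rab-18 (with kbp-4 and par-2), rab-5 (with nmat-2), rab-14 (with nipi-3), snx-13 (with snr-1) and vps-24 (with eif-1 and pigb-1) were also shared, with the member's 5′ end nearest. ChIP-seq does not show which of the genes a shared region acts on.

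**Figure D5:**
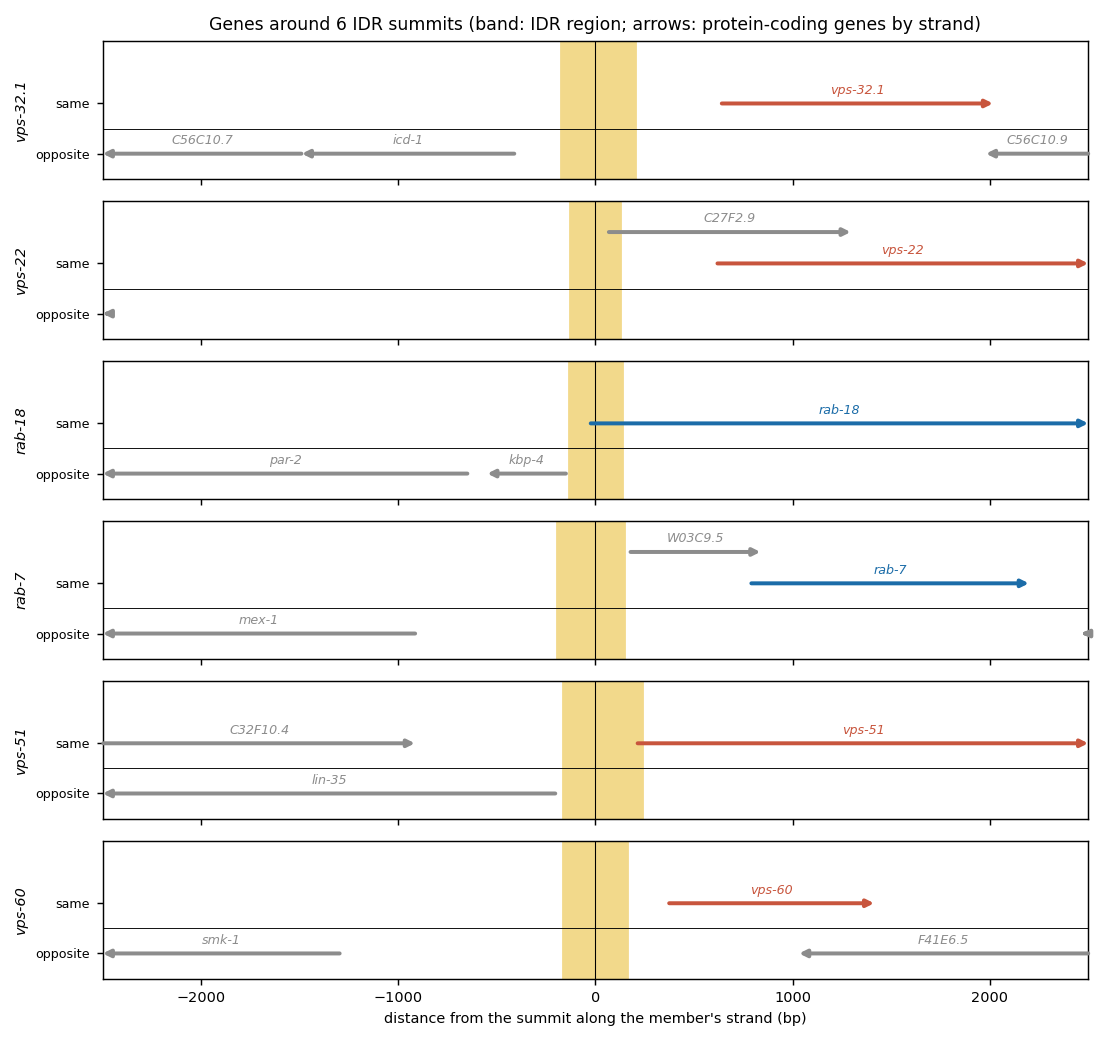
Protein-coding genes around 6 IDR summits, drawn as distance in bp from the summit along the strand of the member (coloured), with other genes in grey and the IDR region as a band. Arrows above the line run on the member's strand and those below on the opposite strand; at vps-32.1, vps-22, rab-7 and vps-51 another gene starts nearer to the summit than the member, and at vps-60 none does.

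The arrangement of neighbouring genes differed between bound and other members. A member whose nearest upstream gene lay on the opposite strand was bound in 16 of 29 cases (55.2%), against 23.2% of all genes so arranged. Where a gene on the same strand ended within 500 bp upstream, as in many C. elegans gene clusters, 2 of 18 members were bound (11.11%), against 11.17% of all such genes. Those 2 were arf-1 and vps-28, and vps-26, vps-29, vps-35, rab-21, rab-33 and arl-1 were among the 16 that were not. Where such a gene ended farther away, 3 of 13 were bound (snx-1, vps-37 and vps-45), against 9.86% of all genes. In the remaining 6 another gene covered the 5′ end, and 4 of these were bound, against 12.7% of all such genes, namely rab-7, rab-19, vps-22 and vps-33.2. Of the 11 ESCRT genes, 7 had the opposite-strand arrangement and 6 of those were bound, while 1 had a same-strand gene ending within 500 bp. Arrangement was set at the outermost 5′ end, while binding was counted at any 5′ end. At arf-1, rab-19 and vps-25 the strongest summit lay inside the gene, upstream of an internal transcript start. The part of the arrangement in the ESCRT count was not tested.

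Base composition at the bound members was like that at IDR entries in general. The 200 bp windows at the 25 summits had a median GC content of 43.5% (24% at vps-2 to 56% at rab-14), against 44% at all 4087 IDR entries, 37% at 25278 weaker candidates and 33% in the 200 bp upstream of all protein-coding genes. GAGAGA was found in 7 of the 25 windows (28%), against 45.5% of IDR entries, 19.4% of weaker candidates and 16.3% of upstream windows. TTTNNCGC was found in 7 (28%, against 19.9%, 12.4% and 13.6%), TATAAA in 5 (20%, against 12.8%, 20.9% and 30.4%), TGATAA in 2 (8%, against 9.52%, 17.9% and 22.7%) and CACGTG in 1 (4%, against 7.32%, 4.76% and 4.21%). The CACGTG is the one in capitals at rab-7, and the window at vps-60 held 3 of the 5 motifs. No match was found at vps-37 and rab-14. With 25 windows, differences of a few windows are within counting error.

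Other trafficking genes showed shares of the same order. Of 132 such genes in 10 lists, 55 were bound (41.7%, interval 33.15 to 50.6), with 57 and 55 from replicates 1 and 2 alone. Clathrin and its adaptors were bound in 13 of 19 cases, led by epn-1, the epsin gene (1308.9 pooled, 513.1 in replicate 1, 792.9 in replicate 2), and apb-1, an adaptin gene (1070.4 pooled). The COPI coat, which carries cargo back from the Golgi, was bound in 6 of 7 cases, with copz-1 (443.1) and copb-2 (225.7) highest. Exocyst genes were bound in 4 of 8 cases, led by sec-15 (846.0) and sec-3 (607.4), and COPII genes in 3 of 8, led by sec-24.1 (638.2) and npp-20 (273.1). GTPases with other names were bound in 2 of 5 cases, unc-108 (740.3, the worm RAB-2) and sar-1 (566.2). Of Rab regulators 10 of 31 were bound, led by ccz-1 (698.8) and tbc-14 (406.4), and of Arf regulators 4 of 7, led by git-1 (226.9) and cnt-1 (196.5). SNAREs and their factors were bound in 7 of 31 cases, with syx-5, a Golgi syntaxin gene (863.2), and nsf-1 (306.8) highest. ESCRT genes with other names were bound in 3 of 9 cases, namely chmp-7 (480.7), did-2 (145.3) and mvb-12 (102.4), a lower share than that of the vps-named ESCRT genes. Endosomal recycling genes were bound in 3 of 7 cases, led by ppk-3 (524.0) and sorf-1 (196.4). Shares of all 10 lists were above the 15.9% of all genes, but not all exact intervals were. Intervals lay above it for clathrin and adaptors (43.4 to 87.4%) and COPI (42.1 to 99.6%). The same held for Arf regulators (18.4 to 90.1%) and Rab regulators (16.7 to 51.4%). Those of the other lists included 15.9%, so their shares cannot be told from it. No difference between lists was tested.

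Bound members lay on all 6 chromosomes. On chromosome I 7 of 15 members were bound, against 21.8% of all genes there. On II it was 5 of 14 against 14.9%, on IV 3 of 8 against 15.5%, on V 4 of 7 against 10.3% and on X 3 of 8 against 14.6%. On III the members did not exceed the other genes, with 3 of 14 against 23.5%.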

How the data were processed

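Alignments, signal tracks and peak lists exist for assemblies ce10 and ce11, per the labels and the deposited readme texts. Candidate lists (peaks together with background) cover either replicate and their pool, and an IDR list was derived from them. For the aligner and the caller, the name and version were not given in the sources used here, nor were filters. The deposited lists give a signal value and a −log10 q-value for each entry, and both are the authors'. The ce10 lists were not used here. Nothing beyond the labels' word "biological" says how separate the cultures were, and no entry was identical in both replicates.

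Symbols and transcript 5′ ends came from Ensembl release 115 (WBcel235, the same assembly as ce11), and each gene took its strongest entry with the summit in the promoter window. Coordinates are 1-based. Entries were used unmerged. Exact (Clopper-Pearson) intervals were computed with SciPy 1.17.1 under Python 3.11.15. The assignment of entries to genes was tested on simulated data. No significance test was made, since there is 1 group.

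Named genes are all bound members, up to 5 unbound members of each class by signal value, members with no pooled entry, up to 2 bound genes of each pathway list, and neighbours. Other unbound members were added after their values were seen, as were all bound ESCRT genes with other names. Members and lists were chosen with earlier results of these data known. Of 135 pathway genes, 132 matched a symbol. A neighbour counted as upstream by gene ends, and "covered" means that another gene body spans the outermost 5′ end. Alternatives were other windows, nearest 5′ end, overlap, the strongest 2043 entries, and each replicate alone.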

Additional observations from a re-analysis of the deposited data

How the results depend on the processing

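No paired analysis was possible because the series holds 1 group. Under 7 alternatives the share bound among sorting genes was above that among GTPase genes each time, but the gap moved: GTPase minus sorting was -9.96 percentage points in the main rule, -18.2 within 300 bp of the 5′ end, -3.57 with 2000 bp upstream, -11.09 with the nearest 5′ end, -15.2 with any overlap, -1.32 among the strongest 2043 entries, and -13.5 to -12.6 with 1 replicate left out. Without the 11 ESCRT genes the gap turned: the other sorting genes lay below the GTPase genes in the main rule (25.9% against 32.14%) and under 5 of the 7 alternatives (11.11% against 25% among the strongest 2043 entries), and above them within 300 bp (18.5% against 10.7%) and with the nearest 5′ end (18.5% against 17.9%). This split was not planned, and no group was taken out of the GTPase class. Of the 25 bound members, 14 were called within 300 bp of the 5′ end and 16 with the nearest 5′ end (GTPase genes 3 and 5 of 9), and sorting genes fell from 16 to 10 among the strongest 2043. Leaving out a replicate gave 24 to 26 members, 8 to 9 GTPase and 16 to 17 sorting genes. It lost rab-19 without replicate 2 and added vps-50 without replicate 1. The median pooled signal value over all genes of a class, with genes lacking an entry ranked lowest, was 31.8 for GTPase and 70.9 for sorting genes. It was 73.5 and 93.1 with 2000 bp upstream, and 24.8 for sorting genes within 300 bp of the 5′ end, where the middle GTPase gene had no entry. The replicates' own lists gave 20.3 to 24.7 for GTPase and 30.9 to 45.8 for sorting genes on scales of their own. The median summit position of bound members was -297 bp, and -298 to -249 bp with 1 replicate left out. Read depth is unknown, so no limit for genes without an entry can be given, and control chromatin was not analysed here.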
